A study of Gallus gallus with 858 samples.

Results

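SOHO-1 (ENSGALG00000015599) was followed as 1 gene of the 24356 in the chick single-cell count table, taken by its Ensembl identifier. The table held 858 SmartSeq2 libraries, each made from 1 sorted cell. Every embryo had received the Pax2E1-EGFP reporter by electroporation at the head fold stage. In this plasmid a Pax2 enhancer drives EGFP in otic-epibranchial progenitors (OEPs) and in the otic and epibranchial placodes. EGFP+ cells of the head, cut rostral to the first somite, were sorted at ss8 (8 to 9 somites, the OEP stage), ss11 (11 to 12 somites, early placode) and ss15 (14 to 15 somites, late placode). Every group therefore carried the reporter and the electroporation, and there was no group without them. Strain and sex are not given in the sources used here, and no embryo is named for any cell. Each stage was thus 1 sample made of many cells, sorted in a batch of its own, and stage and batch cannot be told apart. No test between stages or across cells was possible, and the intervals below cover counting error only.

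SOHO-1 (sensory organ homeobox 1) encodes a homeodomain transcription factor related to the HMX factors, known in chick for its transcripts in the otic placode and otic vesicle. In the RefSeq gene table (assembly GRCg7b) it lies between CPZ, a carboxypeptidase gene, and HMX1, a homeobox gene of the HMX family. The inner ear and the epibranchial ganglia share a progenitor field next to the hindbrain, in which Fgf signalling first sets a common state and otic and epibranchial programmes then separate. SOX8 and SOX10 encode SoxE factors and LMX1A a LIM homeodomain factor of the otic side, while VGLL2, a cofactor of TEAD factors, ISL1, a LIM homeodomain factor, and NELL1, a secreted protein, belong to the epibranchial side. SOX10 is also a gene of migrating neural crest, so it does not mark otic cells on its own.

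Cells with at least 500000 counted reads and 1000 genes were kept, which were 97.5% of cells at ss8, 92.3% at ss11 and 86% at ss15 (781 cells in all). At ss8, 8 pairs of libraries differed by little more than sampling noise (chi-square per degree of freedom 1.25 to 1.72, against a median of 68.2 for 100 random pairs of ss8 libraries) and each pair was counted as 1 cell, and none of these libraries held a SOHO-1 read. The kept cells had between 507328 and 7343424 reads. Median genes per cell were 7456 at ss8, 4999 at ss11 and 4862.5 at ss15, and 7212, 4843.5 and 4732.5 once every cell was thinned to 500000 reads. According to the methods, ss8 was sequenced single-end on a different machine, but the series text names 1 machine and paired-end reads throughout.

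SOHO-1 was present in few sorted cells at ss8 and in many more at the later stages. Levels are in CPM, the read count of the gene over all counted reads of the cell, scaled to 1000000 reads. Cells at 10 CPM or more, called positive here, were 12 at ss8 (4.40%, exact binomial 95% interval 2.29 to 7.55), 67 at ss11 (25.6%, 20.4 to 31.3) and 78 at ss15 (31.7%, 25.9 to 37.9). The ss8 interval did not overlap those of ss11 and ss15, and the last 2 overlapped each other. Thinning every cell to 500000 reads left 10, 67 and 78 positive cells at ss8, ss11 and ss15.

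The level within positive cells also differed between the stages. Positive ss8 cells ran from 10.6 to 392.9 CPM with a median of 28.2 (order-statistic 95% interval 13.7 to 45.9). Positive ss11 cells ran from 10.3 to 1857 CPM with a median of 113.8 (82 to 213.7), and positive ss15 cells from 25.4 to 3913 CPM with a median of 331.2 (198.9 to 450.2). The ranges of single cells overlapped widely, whereas the intervals of the ss8 and ss11 medians did not meet and those of the ss11 and ss15 medians did. At 100 CPM or more lay 2 of the 12 positive ss8 cells, 36 of the 67 positive ss11 cells and 66 of the 78 positive ss15 cells. No ss8 cell reached 1000 CPM, which 2 ss11 cells and 11 ss15 cells did. All 11 of those ss15 cells held SOX8 and SOX10 at 10 CPM or more, 9 held GATA3, 4 held LMX1A and none held VGLL2.

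**Figure D1:**
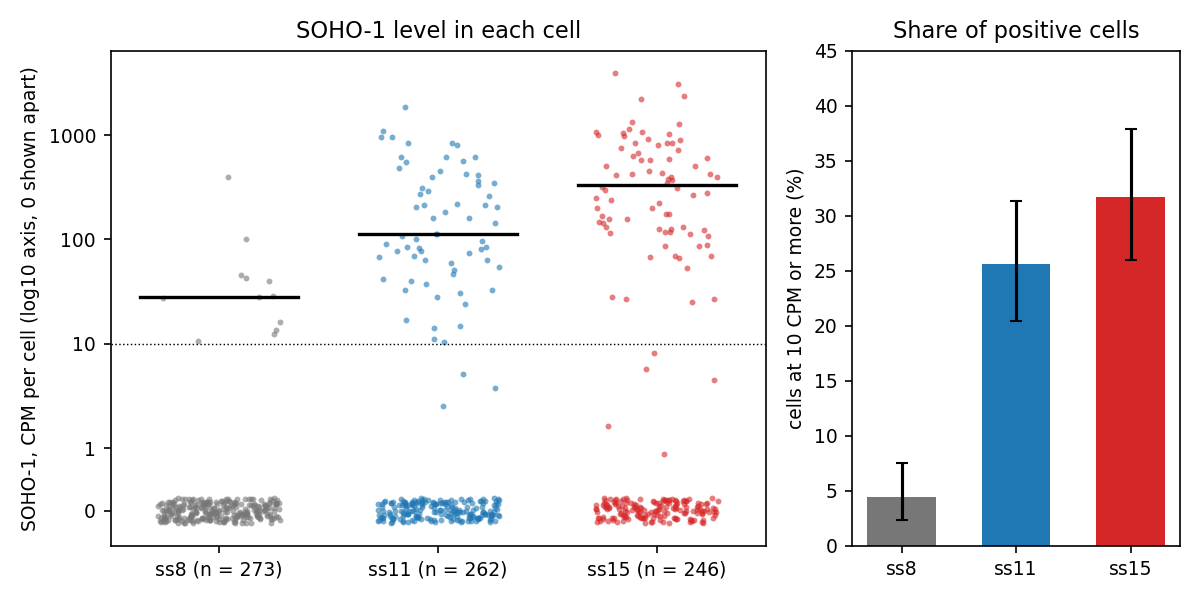
SOHO-1 by stage. Left, CPM of every kept cell on a log10 axis (cells with no read at 0, dotted line at 10 CPM, black bar the median of cells at or above it), and right, the percent of cells at or above 10 CPM with exact binomial 95% intervals. Medians of positive cells were 28.2, 113.8 and 331.2 CPM at ss8, ss11 and ss15, and few cells lay between 0 and 10 CPM.

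Few cells with a SOHO-1 read lay below the 10 CPM limit, but some positive cells lay just above it. With a limit of 20 CPM, 8 cells were positive at ss8, 62 at ss11 and 78 at ss15. At ss8 no cell had a SOHO-1 read below it, and the lowest positive cell, at 10.6 CPM, held 12 reads. At ss11 the 3 cells with reads below the limit lay between 2.56 and 5.16 CPM and the lowest positive cell at 10.3. At ss15 the 5 cells below it lay between 0.871 and 8.18 CPM and the lowest positive cell at 25.4.

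Of 3 placodal markers, most of the 12 positive ss8 cells held GATA3 and DLX6 and few held DLX3. All 12 held GATA3, a zinc finger factor, 11 held DLX6 and 2 held DLX3, both Distal-less homeobox genes, 11 held SOX8, 9 held LMX1A and 7 held SOX10, each at 10 CPM or more. Genes of the epibranchial side differed in the same cells. NELL1 was in 11 and TFAP2E, an AP-2 transcription factor, in 9, whereas ISL1 was in 2 and VGLL2 in none of the 12. All 12 lay in the placodal-like clusters described below. Of the 81 SOHO-1-negative ss8 cells there, 82.7% held GATA3, 70.4% DLX6, 37% DLX3, 50.6% SOX8, 53.1% LMX1A and 18.5% SOX10. NELL1 was in 76.5%, TFAP2E in 53.1%, ISL1 in 17.3% and VGLL2 in 3.70% of these negative cells. For each of these genes the exact binomial 95% intervals of positive and negative cells overlapped. The highest of the 12 positive cells, on plate 3, carried 552 SOHO-1 reads, 55.2% of the 1000 SOHO-1 reads of the stage, together with SOX8 at 203.6, SOX10 at 472.7, LMX1A at 204.3 and NELL1 at 140.2 CPM. It also held EBF3, a helix-loop-helix factor, at 59.8 CPM, and no other positive ss8 cell held EBF3 at 10 CPM. By plate, 2 of 85, 6 of 94 and 4 of 94 cells were positive on plates 1, 2 and 3. In 3 well positions a positive cell was present on each of 2 plates, which took in 6 of the 12 cells. The log2(CPM + 1) profiles of these same-well pairs correlated at 0.77 to 0.85, inside the range of 0.72 to 0.86 of the other pairs of positive cells.

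Summed over all cells of a stage, SOHO-1 was at 2.73 CPM at ss8 (exact Poisson 95% interval 2.56 to 2.90), 68.9 CPM at ss11 (67.9 to 69.9) and 163.2 CPM at ss15 (161.5 to 164.9). The ratio was 25.3 for ss11 over ss8 (23.7 to 27), 2.37 for ss15 over ss11 (2.33 to 2.41) and 59.9 for ss15 over ss8 (56.2 to 63.8). On the log2(CPM + 1) scale these differences were 4.23, 1.23 and 5.46. Larger folds were found in 3 of 7488 measured genes for ss11 over ss8, in 10 of 6716 for ss15 over ss11 and in 3 of 7513 for ss15 over ss8. Of all measured genes, 6.38% were at least 2-fold higher at ss11 than at ss8, 0.402% at ss15 than at ss11 and 7.64% at ss15 than at ss8, and the medians over all genes were -0.22, 0.00 and -0.23. Without the highest ss8 cell the ss8 sum was 1.23 CPM and the ratios of ss11 and ss15 over it were 56.2 and 133.1. Without plate 3 it was 1.5 CPM, with ratios of 45.9 and 108.7.

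The stages were also compared by share and by level within positive cells. At ss11 the share of positive cells was 5.82 times that at ss8 and their median level 4.04 times. At ss15 the share was 1.24 times that at ss11 and the median level 2.91 times. The last ratio depended on the cells used, since in cells with 1000000 reads and 2000 genes the medians were 198.95 CPM at ss15 and 110.5 CPM at ss11, and with a limit of 20 CPM they were 331.2 and 160.5 CPM at ss15 and ss11. In sorted cells, a larger share of a cell type and a higher level per cell both enter the sum, so both are given.

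Other genes of the otic side differed in their course, and some also had more positive cells at each later stage. EBF3 was positive in 6.59%, 15.3% and 19.5% of cells at ss8, ss11 and ss15. Of its positive cells, 6 of 18, 24 of 40 and 37 of 48 lay in the placodal-like clusters described below, so these shares are not of otic cells alone. AvBD5, an avian beta-defensin gene, was positive in 1.83%, 8.02% and 13% of cells at these stages. DACT2, on the list of otic markers used here, was positive in 81.3%, 46.6% and 34.1%. SOX8 was positive in 32.6% of cells at ss8, 61.1% at ss11 and 56.9% at ss15, with summed levels of 16.6, 120.7 and 120.7 CPM, so that its ss15 over ss11 difference was 0.00 on the log2(CPM + 1) scale. SOX10 was positive in 21.6%, 52.7% and 47.6% of cells, with sums of 69.2, 439.6 and 567.3 CPM and an ss15 over ss11 difference of 0.37. LMX1A was positive in 39.2%, 33.2% and 26% of cells, and GATA3, a placodal marker here, in 31.9%, 42.7% and 48%, at ss8, ss11 and ss15. At ss8, SOHO-1 was held by 12 cells, against 89 for SOX8 and 87 for GATA3. VGLL2, on the epibranchial side, had 1.1%, 11.8% and 25.2% of cells positive at ss8, ss11 and ss15 and differences of 4.02 for ss11 over ss8 and 1.28 for ss15 over ss11.

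When cells of all stages were clustered without SOHO-1 among the genes used, nearly all positive cells fell into clusters led by placodal, otic and epibranchial markers, called placodal-like. These held all 12 positive cells at ss8, 61 of 67 at ss11 and 71 of 78 at ss15. Within placodal-like cells, 12.9% were positive at ss8 (6.85 to 21.5), 39.1% at ss11 (31.4 to 47.2) and 43% at ss15 (35.4 to 51). The class was made up of different clusters by stage, since 89 of the 93 ss8 cells lay in a cluster that held 2 ss11 cells and no ss15 cell, and the other ss11 and all ss15 cells lay in 2 other clusters. In neural crest-like cells, led by PAX7 and FOXD3, paired box and forkhead factors of the early crest, none was positive at ss8, which allows a share of up to 1.89%, 3 of 51 were at ss11 and 6 of 37 at ss15. Median reads were 1237640, 1005440 and 837082 in placodal-like cells of ss8, ss11 and ss15, against 1275780, 1069460 and 853540 in neural crest-like cells. A cluster of 96 cells with no name, led by PAX7 and DRAXIN, held no positive cell and only 6 SOHO-1 reads.

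The 2 placodal-like clusters of the later stages differed in SOHO-1. In the first, with markers of the epibranchial side, GATA3 and DLX3, 45 of 99 ss11 cells and 29 of 86 ss15 cells were positive, and the sums were 128.7 and 121.5 CPM at ss11 and ss15. In the second, with SOX8, LMX1A and, like the first, DLX3, 15 of 55 ss11 cells and 42 of 79 ss15 cells were positive, and the sums were 93.3 and 385.1 CPM. The second cluster also had fewer genes per cell, with a median of 3424 against 5484 in the first, and 10 of the 11 ss15 cells at 1000 CPM or more lay in it. The part of gene number in this difference was not tested.

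SOHO-1 went with how many of SOX8, SOX10 and LMX1A a cell held. DACT2, also on the list of otic markers, was not counted. It passed the 2-fold marker limit in the neural crest-like clusters and in no placodal-like one. At ss8 the share of positive cells was 0.980%, 1.85%, 4.76% and 33.3% in cells holding 0, 1, 2 and 3 of SOX8, SOX10 and LMX1A, which came to 1, 2, 2 and 7 cells. At ss11 it was 2 of 70, 4 of 55, 23 of 81 and 38 of 56, that is 67.9% (54 to 79.7) of cells with all 3. At ss15 it was 3 of 74, 13 of 59, 36 of 77 and 26 of 36, that is 72.2% (54.8 to 85.8) with all 3. At ss8, cells with all 3 markers were positive in 33.3% (14.6 to 57). Median reads across these bins ran from 1140710 to 1276370 at ss8, from 985376 to 1045870 at ss11 and from 821442 to 919614 at ss15. Median gene number was higher in cells with all 3 markers than in cells with none. It was 8473 against 6793.5 at ss8, 5363 against 4703 at ss11 and 5103.5 against 4335.5 at ss15. The part of gene number in these shares was not tested. Where GATA3 was held as well, 7 of 15 cells were positive at ss8, 29 of 37 at ss11 and 21 of 27 at ss15.

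**Figure D2:**
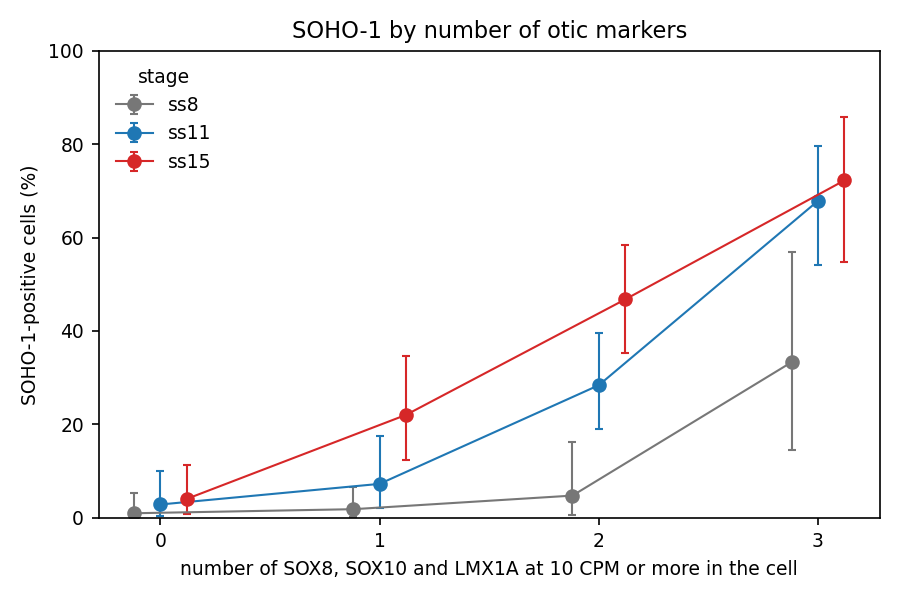
Percent of SOHO-1-positive cells (y axis) by how many of SOX8, SOX10 and LMX1A the cell held at 10 CPM or more (x axis), for ss8, ss11 and ss15, with exact binomial 95% intervals. With all 3 markers the shares were 33.3%, 67.9% and 72.2% at ss8, ss11 and ss15, and with none they were 0.980%, 2.86% and 4.05%.

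The groups by which of the markers a cell held were small. Among ss11 cells with SOX8 and SOX10 but no LMX1A 21 of 64 were positive, with SOX8 alone 1 of 28, with SOX10 alone 1 of 13 and with LMX1A alone 2 of 14. Among ss15 cells the same groups gave 30 of 62, 8 of 36, 4 of 10 and 1 of 13. At ss11 the interval of the group with SOX8 and SOX10 (21.6% to 45.7%) lay above that of SOX8 alone (0.090% to 18.3%) and overlapped that of SOX10 alone (0.195% to 36%). At ss15 the interval of the joint group (35.5% to 61.4%) overlapped those of SOX8 alone (10.1% to 39.2%) and SOX10 alone (12.2% to 73.8%).

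Read the other way, most SOHO-1-positive cells held a SoxE gene. SOX8 was held by 11 of 12 positive cells at ss8, 61 of 67 at ss11 (91%, 81.5 to 96.6) and 66 of the 78 at ss15 (84.6%, 74.7 to 91.8), against 29.9%, 50.8% and 44% of negative cells. SOX10 was held by 61 of 67 at ss11 and 64 of 78 at ss15, against 39.5% and 31.5% of negative cells. LMX1A was held by 42 of 67 at ss11 and 33 of 78 at ss15, against 23.1% and 18.5% of negative cells. GATA3 was held by 48 of 67 at ss11 and 56 of 78 at ss15, against 32.8% and 36.9% of negative cells. Of the cells that held SOX8, 12.4% were SOHO-1-positive at ss8, 38.1% at ss11 and 47.1% at ss15.

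A few positive cells held none of SOX8, SOX10 and LMX1A, 1 at ss8, 2 at ss11 and 3 at ss15, all in placodal-like clusters. The ss11 cell with the most SOHO-1 among them, at 963.4 CPM, had 1657 genes, the fewest of any kept ss11 cell. The other ss11 cell and all 3 ss15 cells held VGLL2, between 113.5 and 386.8 CPM, and GATA3, with SOHO-1 between 26.9 and 126.6 CPM.

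SOX10-positive cells with 3 or more crest markers and those with fewer differed in SOHO-1 share, with intervals apart at both later stages. Of SOX10-positive cells with 3 or more of 6 crest markers (PAX7, FOXD3, TFAP2B, DRAXIN, RXRG and EDNRB), 4 of 47 were SOHO-1-positive at ss11 (8.51%, 2.37 to 20.4) and 10 of the 40 at ss15 (25%, 12.7 to 41.2). Of SOX10-positive cells with fewer crest markers, 57 of 91 were positive at ss11 (62.6%, 51.9 to 72.6) and so were 54 of 77 at ss15 (70.1%, 58.6 to 80). At ss8 the intervals overlapped, with 3 of 35 (8.57%, 1.80 to 23.1) against 4 of 24 in cells with fewer (16.7%, 4.74 to 37.4). The median level of the positive cells was 87.7 CPM in the ss15 cells with 3 or more crest markers and 426.9 CPM in the others. In the main crest-like cluster of the later stages, 9 cells were positive, between 26.9 and 173.6 CPM. All 9 held SOX8, SOX10 and 3 or more crest markers, 1 held GATA3 and none held 2 or more of GATA3, DLX3 and DLX6. Their median gene number was 5612, against 5726 in the other cells of the cluster. A small cluster with TWIST1 and SIM1, both genes of mesoderm, held 4 more positive cells of 24, between 51.3 and 131.4 CPM, of which 3 held SOX8, 3 SOX10 and 2 TWIST1.

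Within each stage, log2(CPM + 1) of every gene at 10 CPM in at least 10% of cells was correlated with that of SOHO-1. These correlations describe the cells of 1 sort, which share a library preparation and differ in cell type and depth. Pearson r was 0.3 or more for 13 of 10319 genes at ss8 (0.126%), 77 of 9296 at ss11 (0.828%) and 32 of 9182 at ss15 (0.349%). Without plate 1 the ss8 number was 40, and without plate 3 it was 20. Of the 77 genes at ss11, 21 were also among the 32 at ss15, 27.3% of the first set and 65.6% of the second. Only 332 genes of the table could be given a symbol, so most of these genes have none. The genes most like SOHO-1 in both stages were 2 identifiers without a symbol, ENSGALG00000003895 (r of 0.56 at ss11 and 0.57 at ss15) and ENSGALG00000030546 (0.55 at both). ENSGALG00000003895 was held by 53 of 67 positive ss11 cells (79.1%), against 20.5% of negative ones, and by 56 of 78 positive ss15 cells, against 17.3% of negative ones.

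Among genes with a symbol, SOX8 had the highest r at ss11 and SOX10 at ss15. SOX8 had an r of 0.44 at ss11 and 0.43 at ss15 (Spearman rho of 0.47 and 0.46), and SOX10 of 0.42 and 0.47 (rho of 0.37 and 0.43). EBF3 had 0.35 at ss11 and 0.45 at ss15. EBF3 was held by 23 positive cells (34.3%) and 17 negative cells (8.72%) at ss11, and by 32 positive (41%) and 16 negative cells (9.52%) at ss15. AvBD5, an avian beta-defensin gene, was held by 17 positive (25.4%) and 4 negative cells (2.05%) at ss11, and by 25 positive (32.1%) and 7 negative cells (4.17%) at ss15, where its r was 0.43. At ss11 AvBD5 was in fewer than 10% of cells and got no r.

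Several genes of epithelial cells were among the other named ones. At ss11 and ss15, CLDN1, a tight junction claudin, had an r of 0.38 and 0.29, MPZL3, a membrane protein of the immunoglobulin family, 0.37 and 0.28, EPCAM, an epithelial adhesion molecule, 0.35 and 0.28, and ESRP2, an epithelial splicing regulator, 0.31 and 0.28. Spearman rho at ss11 and ss15 was 0.38 and 0.15 for CLDN1, 0.34 and 0.30 for MPZL3, 0.33 and 0.18 for EPCAM, and 0.31 and 0.28 for ESRP2. CLDN1 was held by every positive ss11 cell and by 72.8% of the negative ones. LMX1A had 0.34 and 0.26, GATA3 0.29 and 0.35, and DLX3 0.26 and 0.31. CXCL12, a chemokine, had an r of 0.18 at ss15, against 0.37 at ss11, and SMAGP, a small membrane glycoprotein, 0.14 against 0.32. KRT18, a simple keratin on the list of epibranchial markers used here, had 0.16 at ss15, against 0.32 at ss11. At ss8, where 12 cells carried the signal, GATA3 had an r of 0.34, SOX8 0.30, LMX1A 0.21 and SOX10 0.22. Without the highest ss8 cell, GATA3 had 0.33, SOX8 0.27 and SOX10 0.18.

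**Figure D3:**
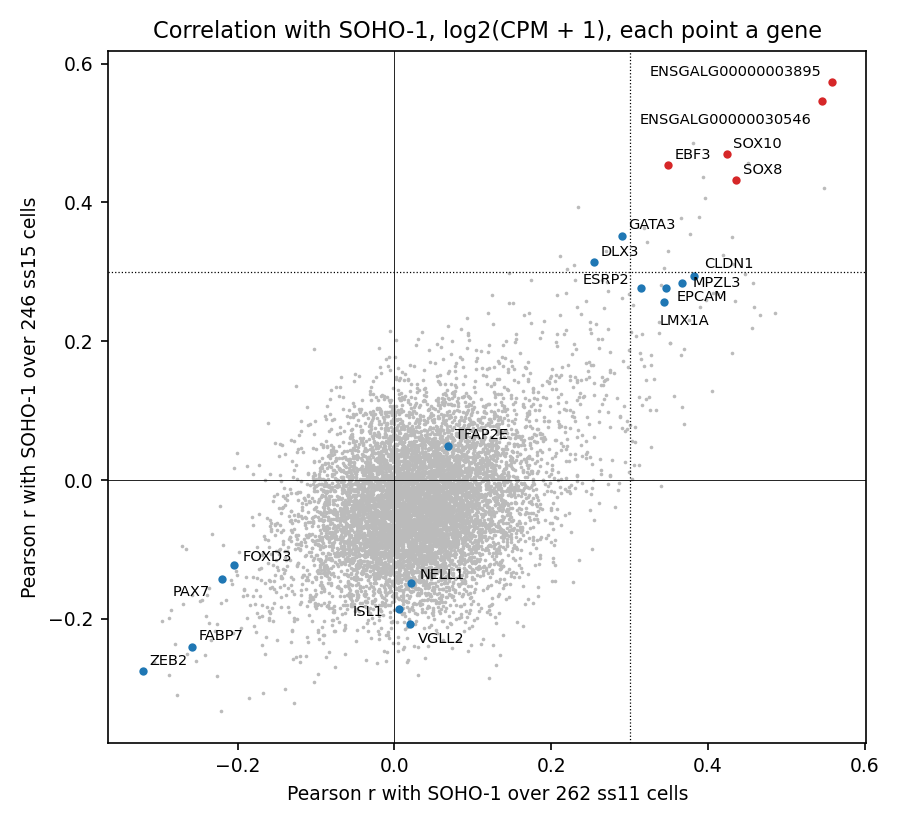
Pearson r of each gene with SOHO-1, log2(CPM + 1), over ss11 cells (x axis) and ss15 cells (y axis). Grey points are all genes tested at both stages, coloured points those labelled, red where r was 0.3 or more at both, and dotted lines mark 0.3. SOX8, SOX10 and EBF3 lie above 0.3 at both stages, and VGLL2, ISL1 and NELL1 lie near 0 at ss11 and below it at ss15.

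The study placed SOHO-1 in a module with 14 other genes, chosen on these same cells, so the module is not independent evidence. Of the 14, 7 had an identifier here. At ss11, 5 were tested and 3 had an r of 0.3 or more, with a median of 0.35 beside 0.028 over all genes. At ss15 all 7 were tested and 5 reached 0.3, with a median of 0.43 beside -0.037 over all genes. ENSGALG00000049007, a member without a symbol, had 0.55 at ss15 and was held there by 31 positive (39.7%) and 10 negative cells (5.95%). MYL4, a myosin light chain, had 0.23 at ss11 and 0.14 at ss15, and NCALD, a neuronal calcium sensor, 0.04 and 0.09. A second otic module had 4 members tested at ss11, with r between 0.23 and 0.43, and 3 at ss15, with r between 0.26 and 0.34. LMX1A and ENSGALG00000047853 (0.43 at ss11 and 0.31 at ss15) were among them. COL9A3, the only gene with an identifier on the list of known otic factors, had an r of -0.05 at ss8, -0.11 at ss11 and -0.08 at ss15. It was held by 8 positive (11.9%) and 40 negative cells (20.5%) at ss11. At ss15 it was held by 15 positive (19.2%) and 39 negative cells (23.2%). HMX1, HMX2 and HMX3 were not analysed here.

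The lowest r among genes with a symbol belonged to ZEB2 at both later stages. ZEB2, a zinc finger repressor of epithelial genes, had -0.32 at ss11 and -0.27 at ss15 and was held by 7 positive (10.4%) and 86 negative ss11 cells (44.1%). FABP7, a fatty acid binding protein of neural cells, had -0.26 and -0.24 at ss11 and ss15. TFAP2B, an AP-2 factor of crest, had -0.24 at ss11, RGCC, a regulator of the cell cycle, -0.24 and PAX7 -0.22. At ss15 the next after ZEB2 were AGR2, a protein disulfide isomerase of secretory cells (-0.25), WNT9B, a Wnt ligand (-0.25), FABP7 and PLEKHS1 (-0.23). Genes at -0.3 or less were 2 of 9296 at ss11 (0.0215%), 7 of 9182 at ss15 (0.0762%) and none of 10319 at ss8. Of the 6 crest markers with an identifier, 2 of 6 tested were above 0 at ss11 and 1 of 5 tested at ss15, beside 65.4% and 31.6% of all genes, so the ss15 count was near that of all genes.

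Genes of the study's epibranchial modules had r on both sides of 0 at ss11 and below 0 at ss15, a difference that could not be tested. Of 12 genes of the study's epibranchial modules with an identifier, 8 were tested at ss11, 5 with r above and 3 below 0 (median 0.013), and 11 at ss15, all below 0 (median -0.19, from -0.25 to -0.12). The study chose these modules on the same cells. Over all genes, 31.6% had an r above 0 at ss15 and 65.4% at ss11, so the ss11 module count was near that of all genes. The module genes tested differed between the stages, since WNT9B, WNT11 and F2RL1 were tested at ss15 and not at ss11. TFAP2E, which is in none of these modules, had 0.07 at ss11 and 0.05 at ss15. Of the 8 epibranchial markers used to name clusters, 7 had an r above 0 at ss11 and 2 at ss15, the latter near the share of all genes. The 2 at ss15 were TFAP2E and KRT18 (0.16), and the median of the 8 was 0.045 at ss11 and -0.14 at ss15. Over all kept cells, VGLL2 was held by 10 positive (14.9%) and 21 negative cells (10.8%) at ss11, and by 11 positive (14.1%) and 51 negative cells (30.4%) at ss15.

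The same correlations were then taken over placodal-like cells only, a choice made after seeing the data. Of genes tested there, 0.404% had an r of 0.3 or more and 0.00961% of -0.3 or less at ss8, 1.01% and 0.108% at ss11, and 0.52% and 0.642% at ss15. SOX10 had an r of 0.60 at ss11 and 0.63 at ss15, SOX8 0.47 and 0.60, and EBF3 0.46 and 0.53. LMX1A, also of the otic side, had 0.31 and 0.20, and GATA3, a gene of most placodal-like cells, had 0.08 and 0.24. VGLL2 had -0.12 at ss11 and -0.41 at ss15, ISL1 -0.17 and -0.39, NELL1 -0.15 and -0.38, FGF8, a growth factor, -0.19 and -0.34, and SOSTDC1, a secreted antagonist of Wnt and BMP ligands, -0.10 and -0.36. The clusters were built with these genes, and cells of 1 sort are not replicates, so the values describe these libraries.

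At ss15 the intervals of positive and negative placodal-like cells did not overlap for VGLL2, ISL1, NELL1, WNT9B, WNT11, FGF8 and SOSTDC1. These genes were in a smaller share of positive cells. Intervals were also apart for SOX8, SOX10, EBF3, AvBD5 and GATA3, in a larger share of positive cells. They overlapped for LMX1A (31 of 71 against 23 of 94), DLX3, DLX6 and TFAP2E. VGLL2 was held by 11 of 71 SOHO-1-positive placodal-like cells (15.5%, 8.0 to 26), against 48 of 94 negative ones (51.1%, 40.5 to 61.5). ISL1 was held by 12 of 71 against 48 of 94, NELL1 by 23 of 71 against 56 of 94, and WNT9B by 1 of 71 against 33 of 94. At ss11 the intervals of positive and negative cells overlapped for VGLL2 (10 of 61 against 21 of 95), ISL1 (13 of 61 against 33 of 95) and NELL1 (26 of 61 against 49 of 95). At ss8, 11 of 12 positive and 62 of 81 negative placodal-like cells held NELL1. TFAP2E was held by 20 of 61 positive and 35 of 95 negative cells at ss11, and by 19 of 71 and 34 of 94 at ss15.

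**Figure D4:**
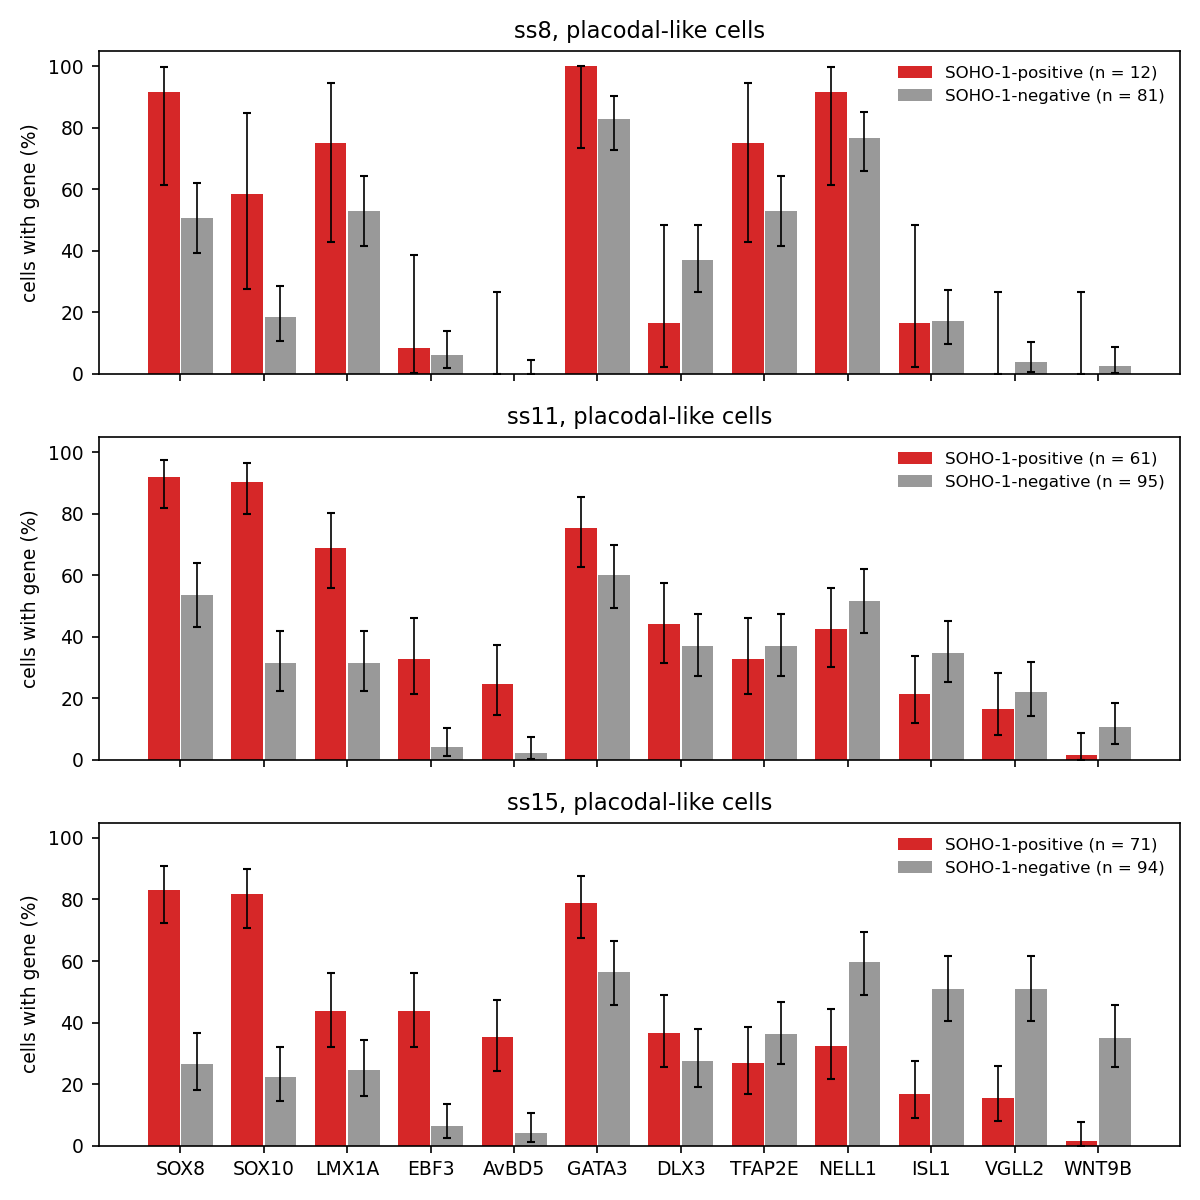
Percent of placodal-like cells holding each gene at 10 CPM or more (y axis) among SOHO-1-positive (red) and SOHO-1-negative (grey) cells at ss8, ss11 and ss15, with exact binomial 95% intervals. At ss15 SOX8 and SOX10 were in 83.1% and 81.7% of positive cells and VGLL2 and ISL1 in 15.5% and 16.9%, against 26.6%, 22.3%, 51.1% and 51.1% of negative cells.

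Some cells with an otic marker set had no SOHO-1. Among cells with 2 or 3 of SOX8, SOX10 and LMX1A and fewer than 3 crest markers, SOHO-1 was positive in 57 of 97 at ss11 (58.8%, 48.3 to 68.7) and in 52 of 74 at ss15 (70.3%, 58.5 to 80.3). Summed over the cells with SOHO-1 and over those without it, 4.03% of 6955 measured genes were at least 2-fold higher and 5% at least 2-fold lower at ss11, and 8.59% and 11.1% of 6727 at ss15. Of 6257 genes measured at both stages, 36 were at least 2-fold higher at both and 51 at least 2-fold lower at both. How many would be shared with no link between the stages was not computed. Those with a symbol are named here, a choice made after their values were seen. On the higher side this was EBF3 alone, at 39.3 CPM with SOHO-1 and 2.96 CPM without it at ss11, and at 64 and 13.5 CPM with and without it at ss15. On the lower side were PDGFA, a growth factor ligand, BLNK, an adaptor protein, EMP1, an epithelial membrane protein, PLEKHS1 and HEYL, a Notch-responsive repressor. BLNK was at 4.03 CPM with SOHO-1 and 29.2 CPM without it at ss11, and at 2.05 and 45 CPM with and without it at ss15. These sums rest on few cells, since BLNK was held by 25% of the 40 ss11 cells and 27.3% of the 22 ss15 cells without SOHO-1. LMX1A was under the 2-fold limit, with a log2 difference (with over without SOHO-1, 1 CPM added) of -0.59 at ss11 and -0.63 at ss15. Median gene number was 5378 with SOHO-1 and 4689 without it at ss11, and 4234 and 5088.5 with and without it at ss15, and its part in these values was not tested.

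Among positive cells only, the r of SOX8, SOX10, EBF3 and LMX1A was lower than over all cells. SOX10 had an r of 0.29 over the 67 positive ss11 cells and 0.28 over the 78 positive ss15 cells, EBF3 0.27 and 0.30, SOX8 0.22 and 0.11, and LMX1A 0.06 at both. ENSGALG00000003895 had 0.23 and 0.39. NELL1 had -0.06 at ss11 and -0.45 at ss15, and VGLL2 -0.29 and -0.31. Over the same ss15 cells SOHO-1 level and gene number were correlated at -0.48, and SOHO-1 level and read number at -0.32, against -0.17 and -0.22 at ss11. Whether gene number has a part in the correlations among positive ss15 cells was not tested. Median gene number, all cells thinned to 500000 reads, was 5211 in positive and 4737 in negative ss11 cells, and 4368.5 in positive and 4790.5 in negative ss15 cells.

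Positive cells also had more reporter reads, with medians of 537.8, 98.1 and 86.3 GFP reads per 500000 at ss8, ss11 and ss15, against 57.6, 0 and 14.5 in negative cells. GFP was at 5 reads or more per 500000 in 12 of 12 positive ss8 cells, 51 of 67 at ss11 (76.1%, 64.1 to 85.7) and in 58 of 78 at ss15 (74.4%, 63.2 to 83.6), against 88.1%, 44.6% and 55.4% of negative cells. Of cells at that GFP limit, 51 were SOHO-1-positive at ss11 (37%, 28.9 to 45.6) and 58 at ss15 (38.4%, 30.6 to 46.7). Of cells below it, 16 were positive at ss11 (12.9%, 7.56 to 20.1), with a median level of 68.3 CPM, and 20 of 95 at ss15 (21.1%, 13.4 to 30.6), with a median of 210.4 CPM. In positive cells, SOHO-1 level and GFP level had an r of 0.11 at ss11 and 0.18 at ss15.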

How the data were processed

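Libraries were made by SmartSeq2 from single cells sorted by FACS. Per the methods and the submitters' processing notes, the authors used Cutadapt 2.10 for trimming, HISAT2 2.2.1 for alignment (galGal6 plus GFP), SAMtools 1.10, and HTSeq 0.12.4 for counting. The deposited values are raw read counts per gene and cell, with GFP counts in a table of their own. Reads carry neither molecular identifiers nor strand, so counts include PCR copies, exact intervals cover counting error only, and reads of overlapping genes on opposite strands cannot be told apart.

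From these counts, CPM was the count over the cell total times 1000000. Cells needed 500000 reads and 1000 genes, which kept 273 of 280 at ss8, 262 of 284 at ss11 and 246 of 286 at ss15. The study's limit on mitochondrial reads was not applied. Libraries of 1 stage with at least 20000 reads and a correlation above 0.95 were added up. A gene was measured in stage folds with 20 CPM in 1 stage and 10 CPM in 20% of its cells, with 1 CPM added before log2. Clustering (30 principal components of 2000 variable genes, SOHO-1 left out, 15 neighbours, Leiden at resolution 1; scikit-learn 1.9.0, leidenalg 0.10.2) used all kept cells. A cluster was named with 3 or more markers of 1 class at 2-fold or more and in 20% of its cells, where otic, epibranchial and placodal markers counted together as the placodal class. Doublets were gated out at the sort by the authors and not called again. Python 3.11.15, numpy 2.4.6, pandas 2.3.3 and scipy 1.17.1 were used, with edgeR 4.0.16 in R 4.3.3 for TMM factors. Fold and correlation code was tested on simulated data.

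SOHO-1, the marker lists, the rule for named genes and most alternatives were chosen with earlier results of these data known. Named genes were, among those with a symbol, the 10 with the highest r at ss11, at ss15 and in the smaller of both, the 5 lowest at each, and SOX8, SOX10, LMX1A, GATA3, VGLL2, TFAP2E, NELL1, ISL1 and the other genes of the study's module in any case. At ss8 none was chosen, since fewer than 20 cells were positive. Symbols came from 332 identifier and symbol pairs in the study's tables, used as nomenclature only. Neural and cell cycle genes were not analysed here.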

Additional observations from a re-analysis of the deposited data

Results flagged for a closer look

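Cells left out for depth carried SOHO-1 as well, in data that entered no comparison above. Of the 22 ss11 cells under 500000 reads or 1000 genes, 4 were at 10 CPM or more (18.2%, exact binomial 95% interval 5.19 to 40.3). Of the 40 such ss15 cells, 9 were (22.5%, 10.8 to 38.5). Their summed levels were 65.8 CPM at ss11 and 232.1 CPM at ss15, with median reads of 288133 and 336673. Among the 7 such ss8 cells none held a SOHO-1 read, with a median of 20 reads. The share in the cells left out was not tested against that in the kept cells.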

How the results depend on the processing

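Of the recomputed values, 150 stayed within the counting interval of the reported value, or within 1.5 times a count, 31 moved and none changed sign. Every share of positive cells, median level, share within placodal-like cells and share by GFP reads stayed within that interval under each alternative that was run. Shares in the other classes were not recomputed, and the neural crest-like name of the main ss8 cluster depended on the settings. The ss15 median came closest to leaving it, at 198.95 CPM in cells with 1000000 reads and 2000 genes, against 331.2 CPM as reported and a lower bound of 198.93. Of co-detection values 1 moved, EBF3 in SOHO-1-positive ss15 cells, to 55.4% when 1 read sufficed for both genes.

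The log2 differences kept their direction. With 0.1 CPM added they were 4.61 for ss11 over ss8 and 5.85 for ss15 over ss8, and with 10 CPM added 2.63, 1.13 and 3.77 for ss11 over ss8, ss15 over ss11 and ss15 over ss8. For ss15 over ss11 the difference was 1.28 with each cell weighted equally, 1.29 after thinning and 0.95 in cells with 1000000 reads and 2000 genes, which gave 5.18 for ss15 over ss8. Chosen after seeing the data, leaving out the highest cell of each stage gave 4.78, 1.31 and 6.09, and placodal-like cells alone gave 3.70, 1.03 and 4.72. Leaving out each ss8 plate gave 4.0 to 4.80 for ss11 over ss8 and 5.23 to 6.04 for ss15 over ss8, the highest without plate 3. TMM scaling moved none of the 3 differences. With no filter on low genes, 2.18% of genes were 2-fold higher at ss15 than at ss11.

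The share of tested genes at r of 0.3 or more moved under the most alternatives at ss8, to 0.194% (20 genes) by Spearman rho, 0.0671% (6 genes) among genes in 20% of cells, 0.193% (20 genes) in cells with 1000000 reads and 2000 genes and 0.404% (42 genes) in placodal-like cells. Without each ss8 plate it was 0.186% to 0.384%, that is 19 genes without plate 2, 20 without plate 3 and 40 without plate 1. In cells with 1000000 reads and 2000 genes, which were fewer, it was 1.76% at ss11 and 0.785% at ss15, and 71 of the 77 genes at ss11 and 22 of the 32 at ss15 were among them. No paired analysis was possible because each stage is 1 sample and replicate numbers only name cells. At 12 positive cells, ss8 levels and correlations rest on few cells.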
